A study of Mus musculus with 2 samples.

Results

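Solute carriers are membrane proteins that move small molecules across membranes, and their genes carry the symbol Slc with a family number and a member letter and number. The genes described here were selected on the summed read count of the libraries, which had to reach 100. The symbol had to begin with Slc and a digit. Of 371 such rows in the table, 164 were kept, and they are 164 of the 22060 genes of the table. A further 8 reached the minimum and were left out by name (Slc2a1, Slc2a3, Slc16a1, Slc16a3, Slc7a11, Slc40a1, Slc11a1 and Slc11a2), 93 had 1 to 99 counts and 106 had none. Slc25a14 (111), Slc18a2 (112) and Slc25a27 (113 counts) lay just inside the minimum. Just outside it were Slc22a23 (89), Slc4a3 (88), and Slc7a4 and Slc25a33 (87 counts each). Of the 164 genes, 3 do not encode transporters: Slc9a3r1 encodes a scaffold protein, and Slc7a6os and Slc4a1ap are named for a neighbouring gene or a binding partner.

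The series holds 2 RNA-seq libraries of bone marrow-derived macrophages from C57BL/6 mice aged 8 weeks. Marrow cells had been cultured in M-CSF, which drives macrophage differentiation, for 7 days and were not treated further (0 h). One library comes from wild-type cells (WT) and the other from cells with STAT2 T403A, a change of a threonine to alanine in a transcription factor of the type I interferon response. Whether marrow of several mice was pooled is not given in the sources used here. With 1 library per group there is no test across replicates. What follows describes these libraries, and no difference can be assigned to the genotype.

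Macrophages use solute carriers to take up amino acids, metals and nucleosides, to recover the products of digestion from lysosomes, and to exchange metabolites with mitochondria. Families are defined by sequence similarity and can carry different substrates. Many amino acid carriers of the Slc7 family reach the plasma membrane as light chains bound to the heavy chain encoded by Slc3a2. Most of the Slc25 family sits in the inner mitochondrial membrane, and most Slc35 carriers bring nucleotide sugars into the Golgi apparatus and endoplasmic reticulum.

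The count total was 16033032 in WT and 18658381 in T403A. Levels are given as CPM, counts relative to the library total after TMM scaling, and levels of different genes are compared only per kilobase of gene length (CPM per kb). Where a pair of values is given without library names, WT comes first. Stat2 itself was at 376 CPM in WT against 84.4 in T403A, and since the substitution need not change the count, this checks no label. All 8 macrophage markers examined were present, at a summed 50364 CPM in WT against 38929 in T403A. Most of the sum was Lyz2 (36620 and 29804 CPM). Adgre1, Cd14, Fcgr1 and Itgam were lower in T403A by more than 1.5-fold. Csf1r, Lyz2 and Mertk were lower by less than that, and Cd68 was higher (947 and 1189 CPM). Marker lists of other cell types summed to at most 11.3 CPM in either library. The neutrophil sum was 8.73 CPM in WT against 11.3 in T403A, with Ly6g and Elane at 0 in both. S100a9 (1.87 and 3.86 CPM), Ltf (1.67 and 3.21 CPM) and Ngp were higher in T403A. S100a8 (2.07 and 1.25 CPM), Camp (1.47 and 0.501 CPM) and Mpo were lower. The stromal and endothelial sum was 8.73 and 3.26 CPM, and Cd3e, Cd3g and Ncr1 were at 0. Mki67, a gene of dividing cells, was at 54.8 CPM in WT against 258 in T403A. In bulk RNA, fewer cells of a type and less RNA per cell cannot be told apart. What part cell division or cell make-up has in the differences given here was not tested.

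In WT 1.413% of all counts fell on the solute carriers, with a 95% Wilson interval of 1.407 to 1.419. In T403A the share was 1.499%, with an interval of 1.493 to 1.504. After TMM scaling the same genes summed to 15100.1 CPM in WT against 14025 in T403A, 1.08-fold lower, so the direction turns with the scaling. That is a ratio of 0.929 for T403A over WT. On the same scale the sum of all 9890 genes with at least 100 counts had a ratio of 0.875. Without Slc6a6, a gene left out after its values were seen, the raw share was 1.286% in WT and 1.236% in T403A. A gene was called higher or lower in T403A when the ratio of CPM was at least 1.5-fold and its exact 95% counting interval excluded 1. By this rule 21 of the 164 genes were higher (12.8%), 19 were lower (11.6%) and 124 were neither. Among all 9890 genes with at least 100 summed counts, 11.7% were higher and 10.6% were lower. The solute carriers as a whole were therefore called about as often as any expressed gene in both directions. Their median log2 ratio was -0.04, against -0.00 for all 9890 genes. Scaling by library size moved the median of all genes up by 0.19 and gave 32 higher and 12 lower solute carriers. Some 72 of the 164 genes differed by less than 1.2-fold, beside 4835 of all 9890 genes. Among the 97 solute carriers with at least 1000 summed counts, 13 were higher (13.4%) and 15 lower (15.5%). All genes of that depth gave 6.07% and 11.9%. Among the 67 solute carriers with fewer than 1000 summed counts, 8 were higher (11.9%) and 4 lower (5.97%). All genes of that lower depth gave 19.3% and 8.82%. Solute carriers were thus called more often than all genes at the higher depth and less often at the lower. No test of these differences was made. In the plot of levels, called genes are spread over the whole range.

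**Figure D1:**
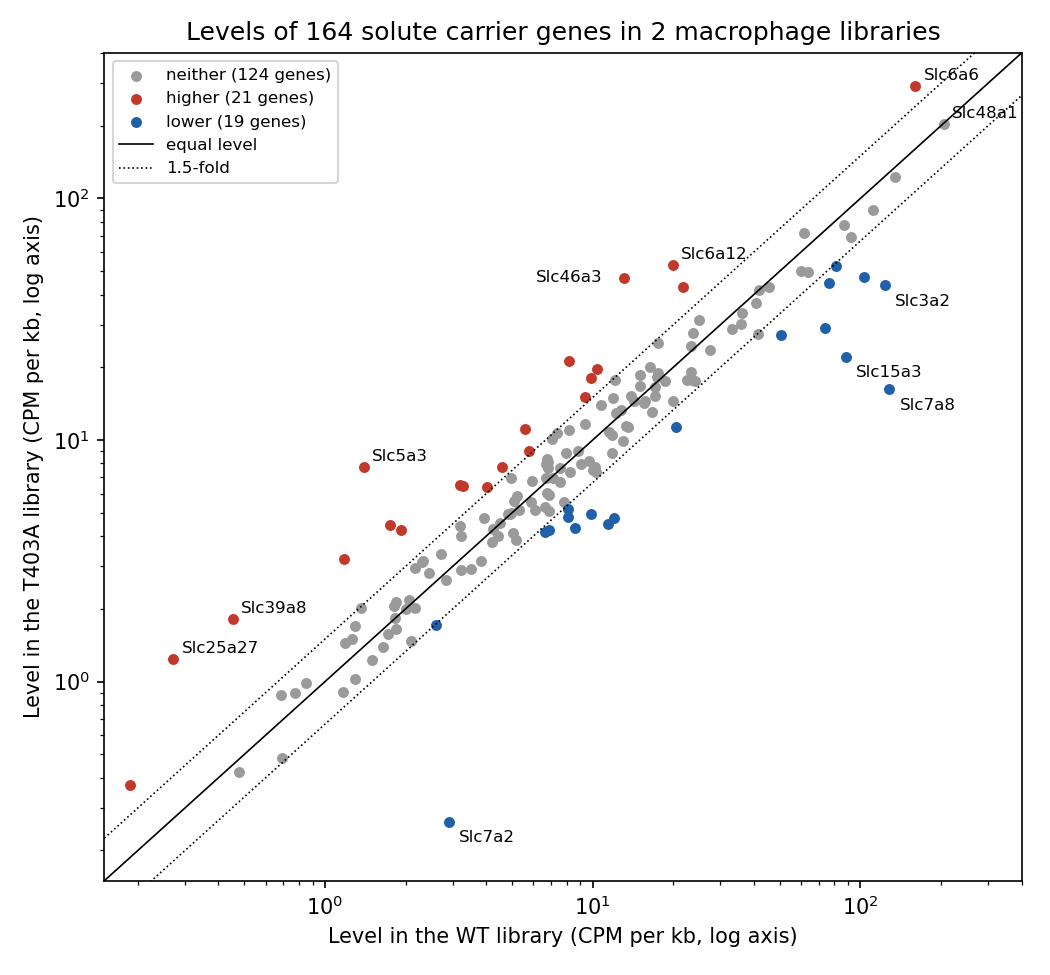
Level of each of the 164 solute carrier genes in the WT library (horizontal) and the T403A library (vertical), in CPM per kb on log axes, coloured by call, with the line of equal levels and dotted lines at 1.5-fold. Slc6a6 is the highest point in T403A, and Slc7a8, Slc15a3 and Slc3a2 are the abundant genes farthest below the line.

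The order of levels was led by a few genes. Slc48a1, which exports heme from lysosomes, had 205 and 203 CPM per kb in WT and T403A, the highest level in WT. Slc6a6, the taurine carrier, had 160.3 and 291 CPM per kb and was first in T403A. Among all 9890 genes it ranked 246 by level in WT and 82 in T403A. Its counts alone were 8.98% of all solute carrier counts in WT and 17.6% in T403A. Slc25a5, an ADP/ATP exchanger of mitochondria, followed in both libraries (135 and 123 CPM per kb). Slc7a8 and Slc3a2 ranked 4 and 5 in WT, and 47 and 15 in T403A. The median gene was at 7.88 CPM per kb in WT and 7.69 in T403A. At the other end, 55 genes in WT and 58 in T403A were below 5 CPM per kb.

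Promoter sequence was examined because STAT2 acts with partner factors at short DNA motifs. RefSeq promoter windows (GRCm38.p6, 250 bases before to 50 after a transcript start) were found for 124 of the 164 genes, among them 15 of the 21 higher and 15 of the 19 lower ones. The letters searched on both strands were the core of the interferon-stimulated response element, which is GAAA, any 2 bases and GAAA again, and TTCNNNGAA, the site shape of STAT dimers. The first was present in 3 of the 124 genes (2.42%), against 3.99% of all 27025 genes with a window and 4.08% of the 7973 of them with at least 100 counts. Of these 3 genes, Slc25a22 was lower in T403A, while Slc25a15 and Slc37a1 were not called. The second was in 9 of the 124 (7.26%), against 9.55% of all genes and 8.28% of those with at least 100 counts. It was present in 3 of the 15 higher genes (Slc22a15, Slc39a10 and Slc46a3) and in 1 of the 15 lower ones (Slc28a2). TGATGNAAT, the amino acid response element, was in none of the 124 windows, in 1.08% of all genes and in 0.477% of those with at least 100 counts. The E-box CACGTG was in 22 of the 124 (17.7%), against 8.09% of all genes and 12.3% of those with at least 100 counts, and in 3 of 15 higher and 2 of 15 lower genes. A match is a run of letters and not a shown binding site.

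The stretches of the called genes that hold either STAT-related motif are printed here 5′ to 3′ on the strand of the gene, with the match in capitals. They lie at chr7:141435420-141435479, minus strand (Slc25a22), at chr2:122426284-122426342, plus strand (Slc28a2), at chr5:147895020-147895065, minus strand (Slc46a3), at chr1:46925825-46925883, minus strand (Slc39a10) and at chr3:101924584-101924642, minus strand (Slc22a15). None overlaps an exon of GENCODE M21, and that of Slc25a22 lies inside the gene, before a start that RefSeq lists within it. That of Slc39a10 lies before a RefSeq start far outside the GENCODE M21 gene, which ends at 46892852.
Slc25a22: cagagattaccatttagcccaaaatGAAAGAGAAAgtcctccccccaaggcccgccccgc
Slc28a2: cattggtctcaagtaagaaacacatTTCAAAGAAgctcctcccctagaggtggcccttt
Slc46a3: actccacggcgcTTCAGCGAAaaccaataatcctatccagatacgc
Slc39a10: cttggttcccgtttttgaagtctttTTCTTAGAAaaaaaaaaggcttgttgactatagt
Slc22a15: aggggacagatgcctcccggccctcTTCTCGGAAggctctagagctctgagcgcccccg

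By substrate, the genes fell into 9 classes, whose called genes are counted here. Among all 9890 genes with at least 100 counts, 11.7% were higher and 10.6% lower. Amino acid and peptide carriers (25 genes) had 3 higher and 6 lower, metal carriers (21) 3 and 5, and carriers of inorganic ions and protons (20) 4 and 4. Sugar and polyol carriers (9) had 3 higher and 1 lower. Carriers of carboxylates, organic ions and lipids (11) and of vitamins, choline and cofactors (11) had 2 higher and none lower each. Mitochondrial carriers (35) had 2 and 2, and nucleoside and nucleotide sugar carriers (18) 1 and 1. Genes with another or no assigned substrate (14) had 1 and 0. Class medians of the log2 ratio ran from -0.17 for metals to 0.37 for sugars. Those below 0 (amino acids, ions, metals, mitochondrial carriers and genes with another or no assigned substrate) were above 0 with library size scaling. The classes are small, and no difference between them was tested.

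**Figure D2:**
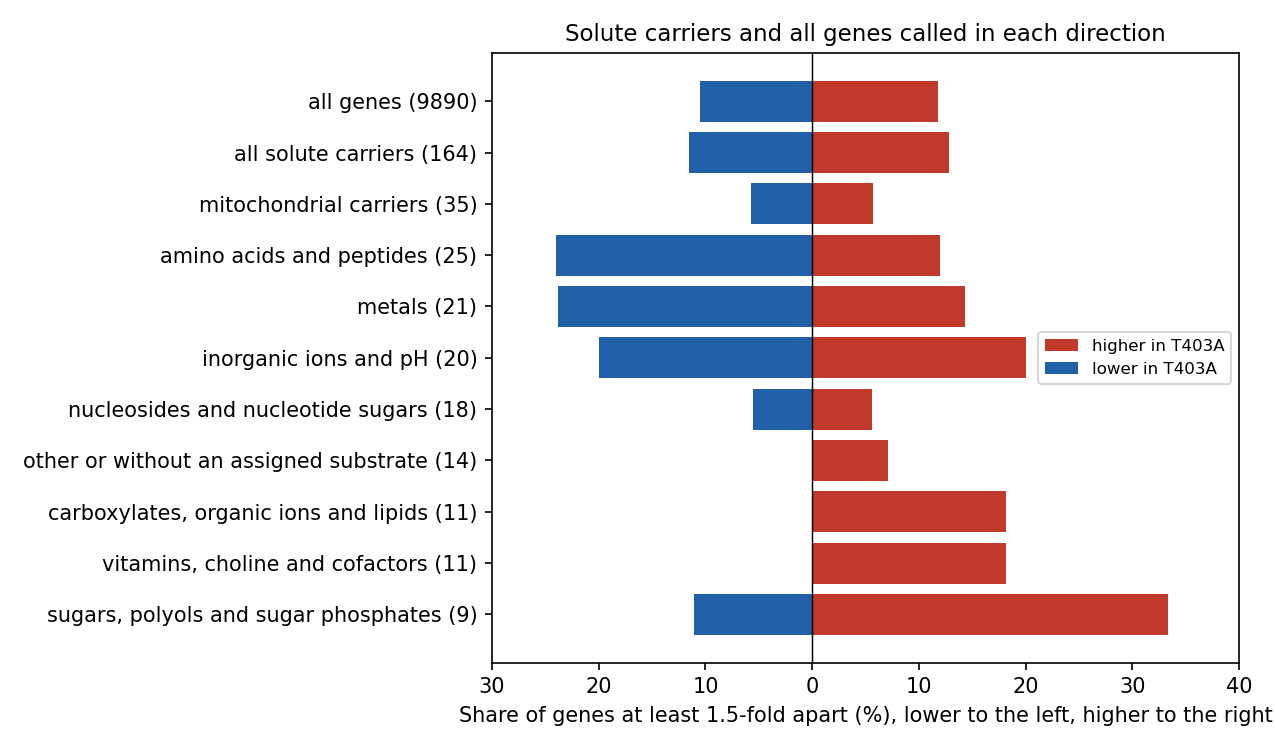
Share of genes (%) called higher (red, to the right) or lower (blue, to the left) in T403A, for all 9890 genes with at least 100 counts, all 164 solute carriers and each of the 9 substrate classes, with the number of genes in parentheses. The bars of all genes and of all solute carriers are of nearly the same length, 11.7% and 12.8% higher and 10.6% and 11.6% lower.

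**Figure D3:**
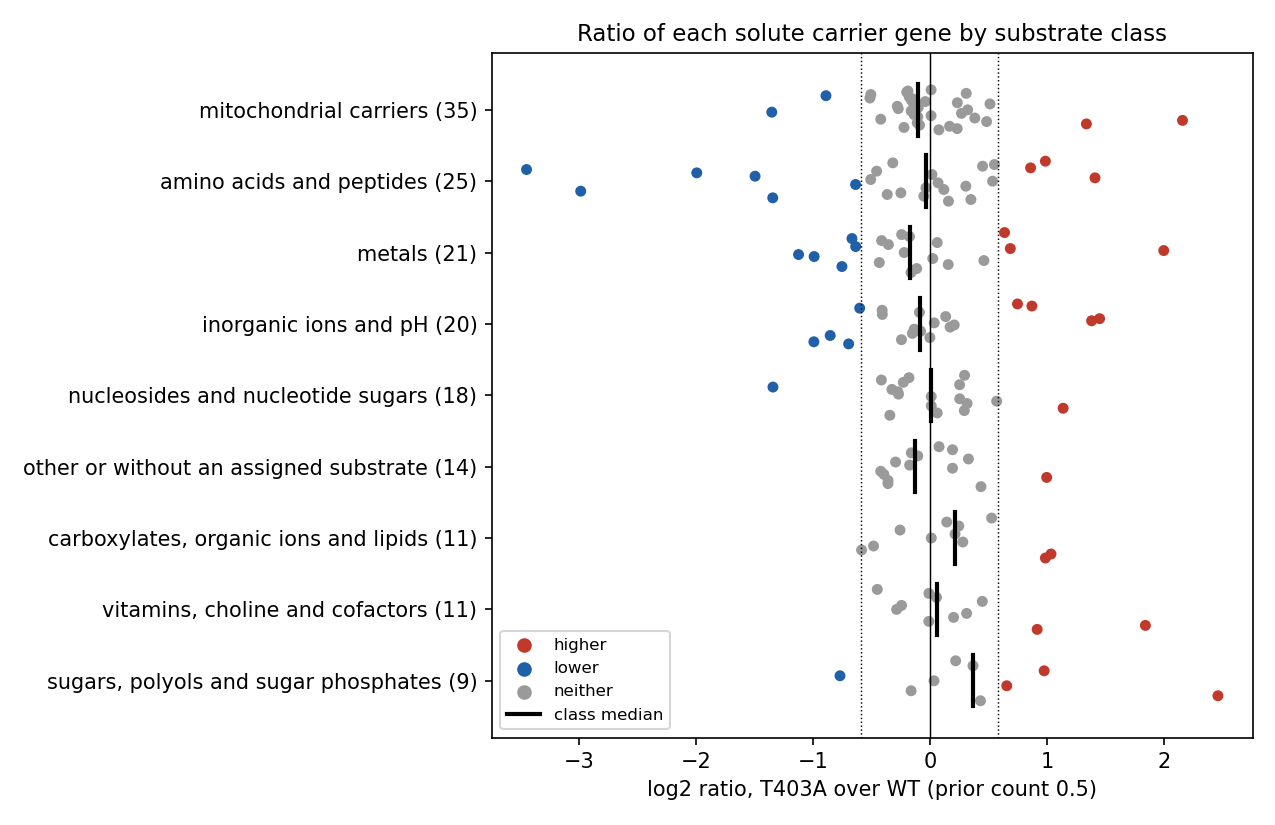
Log2 ratio of T403A over WT for every gene (1 point each), by substrate class, coloured by call, with the class median as a black bar and dotted lines at 1.5-fold. Mitochondrial carriers cluster around 0, while amino acid and peptide carriers spread from -3.45 to 1.41.

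Among the classes, amino acid carriers held the 4 genes with the largest lower ratios of all, and also the most abundant higher gene. Slc7a2 (GRCm38 gene ENSMUSG00000031596, chromosome 8, 40862396 to 40922308, plus strand), a carrier of arginine and other cationic amino acids, had 398 and 48 counts in WT and T403A and was at 26.5 CPM in WT against 2.41 in T403A. It was lower by 11.02-fold (95% interval 8.15 to 15.2). Slc7a1, the more widely expressed carrier of the same substrates, was at 19.0 and 16.0 CPM and was not called. Per length, Slc7a2 (2.904 and 0.264 CPM per kb in WT and T403A) was above Slc7a1 (1.65 and 1.39 CPM per kb) in WT and below it in T403A.

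Slc7a8 (ENSMUSG00000022180, chromosome 14, 54722209 to 54781946, minus strand), a light chain for neutral amino acids, was at 642 CPM in WT against 81.2 in T403A, lower by 7.91-fold (95% interval 7.51 to 8.35). Its partner Slc3a2 (ENSMUSG00000010095, chromosome 19, 8706882 to 8723369, minus strand), the heavy chain shared by several light chains, was at 436 CPM in WT against 155 in T403A, lower by 2.82-fold (2.698 to 2.94). Both transcripts had similar levels in WT, 128 and 16.2 CPM per kb in WT and T403A for Slc7a8 beside 123 and 43.8 CPM per kb for Slc3a2, and the light chain was the lower of the pair in T403A. The other light chains among the 164 genes, which do not include Slc7a11, were scarcer. Slc7a7, for cationic and neutral amino acids, was at 26.8 and 17.3 CPM and lower by 1.55-fold (1.34 to 1.799), a call lost with library size (log2 ratio -0.44) and upper quartile scaling (-0.56). Neither Slc7a6 (24.3 and 23.4 CPM) nor Slc7a5 (4.33 and 3.36 CPM), the latter a carrier of large neutral amino acids, was called. These 4 light chains together came to 698 CPM in WT against 125 in T403A, 5.57-fold lower (95% interval 5.33 to 5.82), most of which was Slc7a8. They were put together after their values were seen.

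Slc16a10 (ENSMUSG00000019838, chromosome 10, 40033532 to 40142258, minus strand), which carries aromatic amino acids, was at 543 CPM in WT against 214 in T403A, lower by 2.54-fold (95% interval 2.44 to 2.63). Slc15a3 (ENSMUSG00000024737, chromosome 19, 10839727 to 10859362, plus strand), a lysosomal carrier of histidine and short peptides, was at 484 CPM in WT against 122 in T403A, lower by 3.98-fold (3.799 to 4.17). Tmem132a lies across its exons on the opposite strand. Its paralog Slc15a4, also lysosomal, was at 64.3 and 94.2 CPM, a 1.47-fold difference in the other direction that did not reach the threshold. It was called higher with library size (log2 ratio 0.74) and upper quartile scaling (0.62). In WT, Slc15a3 had the higher level per length of the pair (88.1 and 22.1 CPM per kb in WT and T403A, beside 12.1 and 17.7 CPM per kb for Slc15a4), and in T403A the gap was narrower. Slc43a2, a carrier of large neutral amino acids and abundant in both libraries, was at 1122 CPM in WT against 901 in T403A and was not called.

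Higher in T403A were 3 of the 25 amino acid carriers, beside 11.7% of all 9890 genes. Slc6a6 (ENSMUSG00000030096, chromosome 6, 91684053 to 91759066, plus strand), the taurine carrier, was at 1356 CPM in WT against 2463 in T403A, higher by 1.82-fold (95% interval 1.79 to 1.85). Slc6a12 (ENSMUSG00000030109, chromosome 6, 121343076 to 121365775, plus strand), which carries betaine and GABA, was at 60.9 CPM in WT against 162 in T403A, higher by 2.66-fold (2.47 to 2.87). Slc38a2 (chromosome 15, 96687392 to 96699730), a sodium-coupled carrier of small neutral amino acids, was at 192 and 380.2 CPM and higher by 1.98-fold (1.899 to 2.07). All 3 are sodium-coupled importers of the plasma membrane. With Slc6a6 included, the summed level of the class was nearly equal, 5773 CPM in WT against 5452 in T403A. Without it the sum was 4417 CPM in WT against 2989 in T403A, 1.48-fold lower (95% interval 1.46 to 1.49). That is a ratio of 0.677 for T403A over WT, beside 0.875 for the sum of all 9890 genes. Slc6a6 was left out after its values were seen, and the interval does not allow for that choice. Leaving out an abundant lower gene such as Slc7a8 (642 and 81.2 CPM) would move the ratio the other way. The sum without Slc6a6 is therefore no measure of the class.

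The 16 amino acid and peptide carriers that were not called had log2 ratios between -0.51 (Slc15a2, an oligopeptide carrier) and 0.55 (Slc15a4). Slc1a5, a glutamine carrier, was at 30.7 and 44.5 CPM (1.45-fold higher). Slc38a9, the lysosomal arginine sensor upstream of the kinase complex mTORC1, was at 38.7 and 52.9 CPM. Slc6a8, the creatine carrier, was at 104 and 75.9 CPM. These genes stood between 1.37-fold and 1.45-fold apart, short of the threshold. Slc1a5 was called higher with library size (log2 ratio 0.73) and upper quartile scaling (0.61), and Slc38a9 with library size scaling alone (0.64). Slc38a1, Slc38a6, Slc38a7, Slc38a10, Slc7a6 and Slc36a4 were all within 1.2-fold. The plot of osmolyte, amino acid and peptide carriers shows both directions side by side.

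**Figure D4:**
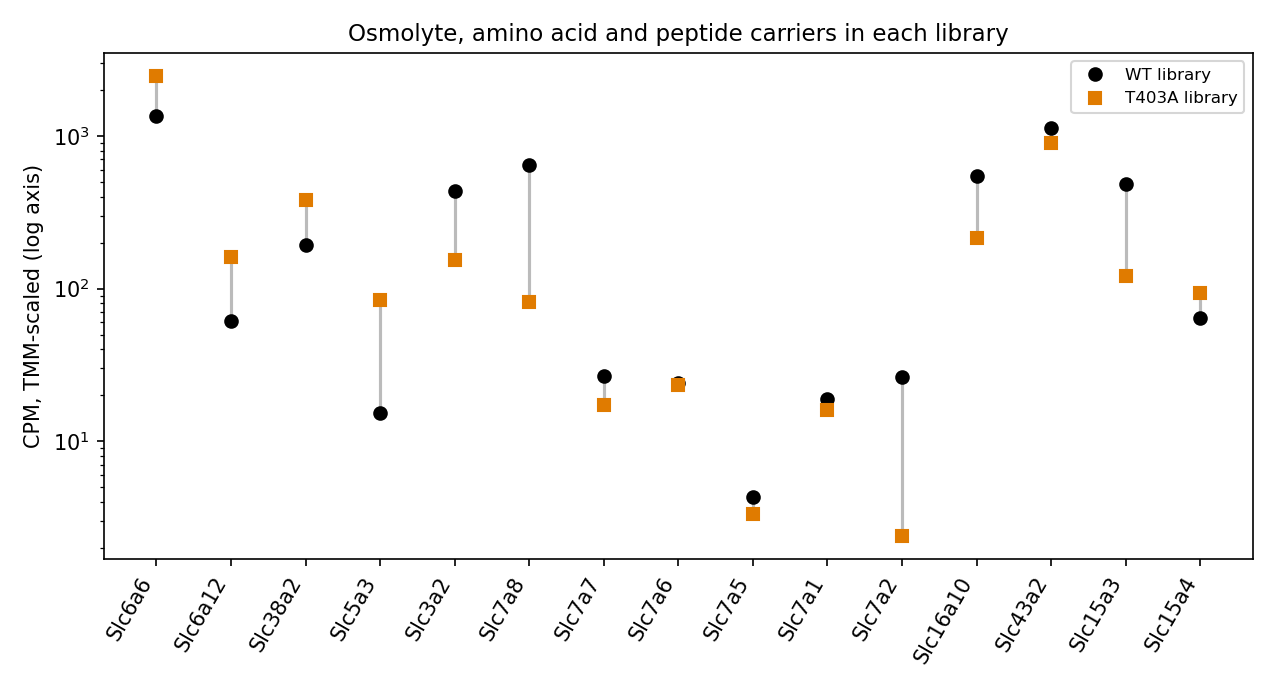
CPM (TMM-scaled, log axis) in the WT library (black circles) and the T403A library (orange squares) for 15 carriers of organic osmolytes, amino acids and peptides, with a grey line joining the values of a gene. Slc6a6, Slc6a12, Slc38a2 and Slc5a3 are higher in T403A, and Slc3a2, Slc7a8, Slc7a2, Slc16a10 and Slc15a3 are lower by more than 2-fold.

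Sugar and polyol carriers held the gene with the largest higher ratio. Slc5a3 (ENSMUSG00000089774, chromosome 16, 92058322 to 92087473, plus strand), a sodium-coupled carrier of myo-inositol, had 229 and 1680 counts. It was at 15.3 CPM in WT against 84.2 in T403A, higher by 5.52-fold (95% interval 4.805 to 6.36). It shares exons on the same strand with Mrps6, which had 1.27 and 3.51 CPM, so reads of the shared part cannot be assigned to one gene. Slc2a8, an intracellular glucose carrier, was at 10.5 and 20.8 CPM and higher by 1.97-fold (1.64 to 2.38). Slc37a3, of the sugar phosphate exchanger family, was at 21.9 and 34.5 CPM and higher by 1.58-fold (1.38 to 1.81). Within the same family, Slc37a2 (chromosome 9, 37227585 to 37255738) was at 506 CPM in WT against 297 in T403A and lower by 1.703-fold (1.65 to 1.76), so these relatives lay in opposite directions. The call of Slc37a2 was lost with library size scaling (log2 ratio -0.58). Slc37a1 (6.67 and 7.77 CPM) and Slc37a4 (13.8 and 14.1 CPM), the latter the glucose-6-phosphate translocase of the endoplasmic reticulum, were not called. Slc2a6, a lysosomal member of the hexose carrier family, was the most abundant of the class per length (86.6 and 77.5 CPM per kb) and was within 1.2-fold. Slc50a1 (15.8 and 20.4 CPM) and Slc2a9, which carries urate (11.7 and 15.8 CPM), completed the class and were not called, though Slc2a9 was called higher with library size scaling (log2 ratio 0.62).

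Of the 21 metal carriers 3 were higher and 5 were lower, beside 11.7% and 10.6% of all 9890 genes. Both copper carriers were among the lower: Slc31a1 (chromosome 4, 62360727 to 62391769), the high-affinity copper importer, was at 347 CPM in WT against 224 in T403A (1.55-fold, 1.49 to 1.62, lower). Slc31a2 (ENSMUSG00000066152, chromosome 4, 62262562 to 62298411, plus strand), its relative in endosomes and lysosomes, was at 209.9 CPM in WT against 96.4 in T403A and lower by 2.18-fold (2.06 to 2.305). The lower call of Slc31a1 was lost with library size scaling (log2 ratio -0.44) and with upper quartile scaling (-0.56).

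Zinc importers of the Slc39 family lay on both sides. Slc39a8 (ENSMUSG00000053897, chromosome 3, 135825279 to 135888572, plus strand), an importer of zinc and manganese, had 52 and 278 counts and was at 3.47 CPM in WT against 13.9 in T403A, higher by 4.02-fold (95% interval 2.98 to 5.52). Slc39a11 (31.5 and 50.7 CPM) was higher by 1.61-fold (1.44 to 1.801) and Slc39a10 (35.3 and 54.9 CPM) by 1.56-fold (1.402 to 1.73). Slc39a13, a zinc carrier of intracellular vesicles, was at 41.7 and 21.0 CPM and lower by 1.99-fold (1.75 to 2.25). The most abundant zinc importer per length, Slc39a1 (92.3 and 69.4 CPM per kb), was 1.33-fold lower and not called, and the other 5 of the 10 Slc39 genes were also not called.

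Among the Slc30 family, which moves zinc out of the cytosol, 1 of 6 was called. Slc30a1, the exporter of the plasma membrane, was at 42.4 CPM in WT against 25.2 in T403A and lower by 1.68-fold (1.496 to 1.897), a call lost with library size scaling (log2 ratio -0.56). Slc30a4, Slc30a5, Slc30a6, Slc30a7 and Slc30a9, which serve internal compartments, were not called, though Slc30a4 was called higher with library size scaling (log2 ratio 0.65). Of the magnesium carriers, Slc41a3 was at 19.3 and 12.1 CPM and lower by 1.59-fold (1.33 to 1.89), a call lost with library size scaling (log2 ratio -0.47), while Slc41a1 and Slc41a2 were within 1.2-fold. The summed level of the 21 metal carriers was 1591 CPM in WT against 1249 in T403A, 1.27-fold lower (95% interval 1.25 to 1.297). That is a ratio of 0.785 for T403A over WT, beside 0.875 for the sum of all 9890 genes. Their raw share of all counts was 0.1489% in WT and 0.1335% in T403A.

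Carriers of inorganic ions and protons had equal numbers in both directions. Sodium/proton exchangers of internal membranes differed among themselves. Slc9a9 (chromosome 9, 94669909 to 95230445), of endosomes, was at 55.8 CPM in WT against 102 in T403A and higher by 1.83-fold (1.69 to 1.99). Slc9a7, of the trans-Golgi network, was at 17.5 and 29.5 CPM and higher by 1.68-fold (1.45 to 1.95). Slc9a8, of the Golgi, was at 62.7 and 38.8 CPM and lower by 1.62-fold (1.47 to 1.78), a call lost with library size scaling (log2 ratio -0.50). Slc9a5, of the same family, was at 4.47 and 5.17 CPM and was not called.

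Slc26a11 (ENSMUSG00000039908, chromosome 11, 119355557 to 119381079, plus strand), an anion carrier of lysosomes, was at 29.3 CPM in WT against 76.5 in T403A, higher by 2.61-fold (95% interval 2.35 to 2.91). Slc24a5, a potassium-dependent sodium/calcium exchanger best known in melanosomes, rested on 41 and 150 counts. It was higher by 2.75-fold (1.94 to 3.99). The calcium exchanger of the plasma membrane, Slc8a1 (chromosome 17, 81373105 to 81738377), was at 186 CPM in WT against 93.3 in T403A, lower by 1.99-fold (1.87 to 2.11). Its mitochondrial relative Slc8b1 was at 158 and 149.6 CPM and had the highest level per length of the class (45.6 and 43.2 CPM per kb). Slc12a4, a potassium-chloride cotransporter, was at 87.3 and 48.3 CPM and lower by 1.805-fold (1.66 to 1.96), while the cotransporters Slc12a2 and Slc12a7 were within 1.2-fold. Slc20a2, a phosphate importer, was at 16.2 and 10.7 CPM and lower by 1.52-fold (1.26 to 1.83), a call lost with library size (log2 ratio -0.41) and upper quartile scaling (-0.53). The phosphate importer Slc20a1 (65.7 and 49.5 CPM) and the bicarbonate carriers Slc4a2 (73.1 and 74.97 CPM) and Slc4a7 (147 and 124 CPM) were not called.

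Mitochondrial carriers of the Slc25 family formed the largest class, and 31 of its 35 genes were not called, beside 7685 of all 9890 genes. The abundant members were near equal: Slc25a3, the phosphate carrier, was at 340.4 and 400.3 CPM, and the ADP/ATP exchangers Slc25a5 and Slc25a4 were at 223 and 203 CPM and 98.1 and 98.8 CPM. Slc25a11, which exchanges oxoglutarate and malate, was at 128 and 106 CPM, and Slc25a1, the citrate carrier, at 88.0 and 79.7 CPM. Lower were 2 genes. Slc25a22 (ENSMUSG00000019082, chromosome 7, 141429744 to 141437892, minus strand), a glutamate carrier, was at 68.6 CPM in WT against 26.9 in T403A, lower by 2.55-fold (95% interval 2.297 to 2.84). Its stretch with the response element core is printed above.

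Slc25a37 (ENSMUSG00000034248, chromosome 14, 69241848 to 69285112, minus strand), an iron importer of mitochondria, was at 304 CPM in WT against 164 in T403A, lower by 1.85-fold (1.77 to 1.94). The second mitochondrial iron importer, Slc25a28, was at 28.2 and 26.5 CPM and was not called. Higher were Slc25a23, a calcium-regulated exchanger of ATP-magnesium and phosphate, at 9.27 and 23.5 CPM (2.53-fold, 2.09 to 3.08), and Slc25a27, of the uncoupling protein group, on 16 and 97 counts (4.56-fold, 2.67 to 8.295). Slc25a24 and Slc25a25, which also exchange ATP-magnesium and phosphate, were at 81.1 and 95.5 CPM and 16.5 and 11.6 CPM and were not called. In all, 20 of the 35 differed by less than 1.2-fold, among them Slc25a3, Slc25a4, Slc25a5 and Slc25a1, beside 4835 of all 9890 genes. Slc25a13 and Slc25a30 were called higher with library size scaling (log2 ratios 0.68 and 0.71).

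Of the 18 nucleoside and nucleotide sugar carriers, 16 were not called, beside 7685 of all 9890 genes. Only 7 of the 18 differed by less than 1.2-fold, beside 4835 of all 9890 genes. Slc28a2 (ENSMUSG00000027219, chromosome 2, 122426477 to 122461137, plus strand), a sodium-coupled importer of purine nucleosides, was at 50.6 CPM in WT against 19.96 in T403A, lower by 2.53-fold (95% interval 2.24 to 2.87). The importer Slc29a1, which works without sodium, was at 26.8 and 32.0 CPM, and its lysosomal relative Slc29a3, the most abundant nucleoside carrier per length (23.2 and 19.2 CPM per kb), was at 135 and 112 CPM. Neither was called. Slc17a9, which loads nucleotides into vesicles, was at 6.13 and 13.5 CPM (92 and 270 counts) and higher by 2.21-fold (1.74 to 2.83). Slc43a3, a purine base carrier, was at 6.07 and 9.03 CPM and 1.49-fold higher, just under the threshold, and was called with library size (log2 ratio 0.76) and upper quartile scaling (0.64). All 20 genes of the Slc35 family were uncalled, beside 7685 of all 9890 genes. Of these 20, 7 were classed as having another or no assigned substrate. Slc35e4 was called higher with library size scaling (log2 ratio 0.63). The sum of the family was 949 CPM in WT against 962 in T403A. Slc35a4 (90.1 and 77.0 CPM) and Slc35b1 (52.5 and 39.4 CPM), the latter an exchanger of ATP and ADP in the endoplasmic reticulum, had the highest mean levels per length in the family among genes with a substrate (27.5 and 23.5 CPM per kb and 23.6 and 17.7 CPM per kb).

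Among carriers of vitamins, choline and cofactors, Slc46a3 (ENSMUSG00000029650, chromosome 5, 147878437 to 147894815, minus strand), a lysosomal protein of the folate carrier family, stood apart. It was at 32.1 CPM in WT against 115 in T403A, higher by 3.59-fold (95% interval 3.25 to 3.97). Its relative Slc46a1, the proton-coupled folate carrier, was at 7.53 and 8.68 CPM and was not called. Slc44a2 (chromosome 9, 21320698 to 21355028), a choline carrier, was at 90.2 CPM in WT against 170.4 in T403A and higher by 1.89-fold (1.77 to 2.01), while Slc44a1, of the same family, was at 167 and 122 CPM, 1.37-fold lower and not called. The heme carrier Slc48a1 was at 563 and 559.8 CPM, a ratio of 1.01-fold (0.977 to 1.03). Slc23a2, which imports ascorbate, was at 284 and 240.1 CPM. Carriers of folate (Slc19a1), thiamine (Slc19a2), riboflavin (Slc52a2), biotin and pantothenate (Slc5a6) and acetyl-CoA (Slc33a1) reached at most 24.6 CPM in either library and were not called, though Slc5a6 was called higher with library size scaling (log2 ratio 0.64).

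Of the carriers of carboxylates, organic ions and lipids, 2 of 11 were higher and none was lower, beside 11.7% and 10.6% of all 9890 genes. Slc16a7, which carries pyruvate and lactate, was at 37.7 CPM in WT against 77.4 in T403A, higher by 2.05-fold (95% interval 1.86 to 2.26). Slc22a15, of the organic ion family, rested on 40 and 106 counts and was higher by 1.99-fold (1.37 to 2.94). Neither fatty acid carrier was called: Slc27a1, the most abundant gene of the class per length (41.4 and 27.6 CPM per kb), had a log2 ratio of -0.58 and was called lower with DESeq2 size factors (-0.59). Slc27a4 was at 59.7 and 49.998 CPM. Slc17a5, which exports sialic acid from lysosomes, was at 63.7 and 91.8 CPM, 1.44-fold higher, and was called with library size (log2 ratio 0.72) and upper quartile scaling (0.60). The carnitine carrier Slc22a5 (15.1 and 15.2 CPM) and the ergothioneine carrier Slc22a4 (26.3 and 18.8 CPM) were not called. In the group with another or no assigned substrate, Slc45a4 was at 47.2 CPM in WT against 94.3 in T403A, higher by 1.999-fold (1.83 to 2.18). The other 13 of the group were not called. The most abundant of these per length were the scaffold gene Slc9a3r1 (63.7 and 49.8 CPM per kb) and the orphan carriers Slc35e1 (24.9 and 31.3 CPM per kb) and Slc35f5 (17.1 and 15.2 CPM per kb).

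**Figure D5:**
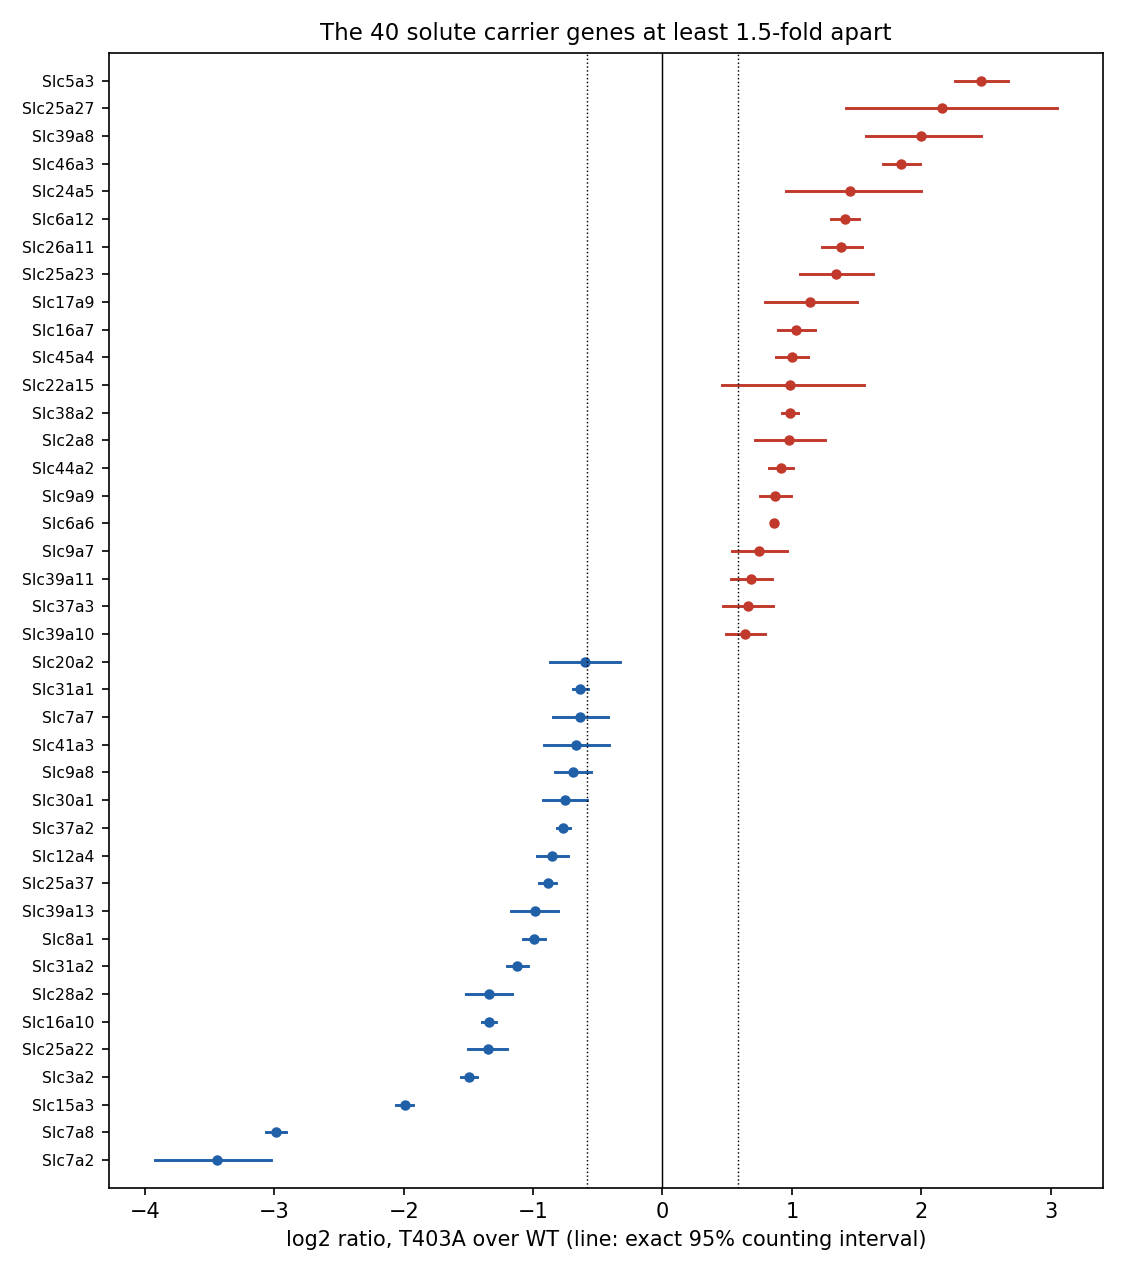
The 40 called solute carrier genes ordered by log2 ratio of T403A over WT (points), with exact 95% counting intervals (lines); dotted lines mark 1.5-fold. Slc25a27, Slc24a5 and Slc22a15, with 16, 41 and 40 WT counts, have the widest intervals among the higher genes.

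Transporter genes that bear solute carrier numbers but other symbols, such as the organic anion carriers (Slco) and the sideroflexins (Sfxn), were counted from a separate list. Of 44 listed, 31 had at least 100 counts, of which 5 were higher, 2 lower and 24 neither, beside 11.7% higher and 10.6% lower among all genes. Slco4a1, an organic anion carrier, was at 49.0 CPM in WT against 491 in T403A, higher by 10.02-fold (95% interval 9.296 to 10.8), a larger ratio than that of any of the 164 genes that were higher in T403A. Nipal3 was higher by 1.801-fold (1.59 to 2.04) and Pqlc3 by 1.67-fold (1.56 to 1.79), and Slco3a1 was at 48.2 and 18.6 CPM, lower by 2.59-fold (2.28 to 2.94). In a list of 14 partners and regulators of solute carriers, 13 had at least 100 counts, of which 2 were higher and none lower, beside the same shares of all genes. No test of either list was made. Rragd, a GTPase of the amino acid sensing complex on lysosomes, was at 5.73 and 19.2 CPM, higher by 3.34-fold (2.64 to 4.27). Emb, a chaperone of monocarboxylate carriers, was at 222 and 343 CPM, higher by 1.54-fold (1.48 to 1.61), and the related chaperone Bsg was at 240.1 and 161 CPM and was not called.

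Exons of 52 of the 164 genes overlap those of another annotated gene, and 5 of these were higher (9.62%) and 10 lower (19.2%). Among all 9890 genes, with or without an overlap, 11.7% were higher and 10.6% lower. Shares of all genes split by overlap were not taken, so nothing particular to solute carriers can be read from this split. Because the strand setting of the counting is not known, reads of such pairs cannot be told apart. Named partners on the opposite strand are Tmem132a for Slc15a3, Oxa1l for Slc7a7, Myef2 for Slc24a5, Smim19 for Slc20a2, Psmc3 for Slc39a13 and Hdac7 for Slc48a1. Slc6a6, Slc7a2, Slc16a7, Slc12a4, Slc8a1, Slc30a1, Slc25a23, Slc25a37 and Slc37a2 overlap unnamed gene models. Of the 112 without an overlap, 16 were higher (14.3%) and 9 were lower (8.04%). Slc7a8, Slc3a2, Slc16a10, Slc28a2 and Slc25a22 among the lower genes, and Slc46a3, Slc39a8, Slc6a12, Slc26a11 and Slc38a2 among the higher ones, have no such overlap.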

How the data were processed

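The authors deposited whole-number read counts per Ensembl gene with a gene length in bases, per the file headers, and 1 column per library. Tools listed in the submitters' processing notes are HISAT2, HTSeq 0.9.1, cutadapt 1.15 and DESeq 1.30.0, with the build GRCm38. Not given in the sources used here are the annotation release, the strand setting and the treatment of multiply mapped reads. Columns were matched to samples by title. Symbols were found for 21969 of 22060 genes, and positions and exon overlaps come from GENCODE M21 (GRCm38), whose exon union equals the deposited length for 96.8% of genes.

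Counts were scaled with TMM (edgeR 4.0.16, R 4.3.3). The ratio of T403A to WT has an exact 95% Clopper-Pearson interval on the counts (scipy 1.17.1), and log2 ratios add a prior count of 0.5. Intervals cover counting error only, and reads without molecular identifiers are not independent molecules. There is no p-value. The scoring was tested on simulated data. Members, substrate classes and lists were chosen with earlier results of these data known, and a few substrate assignments were added after the values were seen. Named in each class were up to 6 called genes with the interval bound farthest from 1 and the 3 highest levels per kilobase, and from each list up to 4 by the interval rule. Other genes were named after their values were seen. Alternatives were library size, upper quartile and DESeq2 1.42.0 scaling, other thresholds, count minimums and prior counts. A few genes are not reported here by name.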

Additional observations from a re-analysis of the deposited data

How the results depend on the processing

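No paired analysis was possible because each group is 1 library. With TMM scaling 21 genes were higher and 19 lower. With library size scaling 32 were higher and 12 lower, and among all genes the shares were then 18.7% and 7.60%. At 2-fold 10 were higher and 8 lower, beside 5.08% and 5.47% of all genes. A minimum of 20 summed counts gave 33 higher among 195 genes. Without genes that overlap another gene, 9 of 112 were lower. Shares of all genes were not taken at that minimum or without overlapping genes. The remaining alternatives kept both counts within 1.5 times. DESeq2 size factors kept all 40 calls, upper quartile scaling 37 and library size scaling 33. With library size scaling the class medians of the log2 ratio were 0.16 for amino acids, 0.11 for inorganic ions and 0.018 for metals. They were 0.089 for mitochondrial carriers, 0.20 for nucleosides and 0.061 for genes with another or no assigned substrate. The shift follows from the scaling itself, which moved all genes up by 0.19. No called gene changed direction among those named under the 3 scalings. Intervals of genes near 100 counts are wide, so depth limits what can be said of them.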

Other observations

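Several of the higher genes import organic osmolytes, the small solutes with which cells balance water: myo-inositol (Slc5a3), taurine (Slc6a6), betaine (Slc6a12) and, through small neutral amino acids, Slc38a2. These 4 were grouped after their values were seen. With 11.7% of all genes higher in T403A, all 4 were higher, by choice, with summed levels of 1624 (WT) and 3089.9 CPM (T403A), a 1.90-fold difference (95% interval 1.87 to 1.93). The interval does not allow for that choice. Most of the sum was Slc6a6, at 1356 CPM in WT against 2463 in T403A. Nfat5, the factor known to induce such carriers in hypertonic medium, was at 174 CPM in WT against 184 in T403A. Akr1b3, the sorbitol-forming enzyme induced with them, was at 101 CPM in WT against 119 in T403A. Neither transcript reached 1.5-fold. Whether hypertonic medium or the activity of Nfat5 has a part in the differences of the carriers was not tested.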
